A study of Mus musculus with 12 samples.

Results

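The 10 genes described here encode the enzymes that cut and trim neuropeptide precursors, the small proteins that bind those enzymes, and the granins that are packed with peptides into dense core vesicles. They were taken by name, with no measured value in the rule, although earlier results of these data were known when the list was drawn up: the prohormone convertases Pcsk1 and Pcsk2, the convertase partners Pcsk1n and Scg5, the carboxypeptidase Cpe, and the granins Chga, Chgb, Scg2, Scg3 and Vgf. All 10 were found among the 16640 genes of the deposited table, and all 10 passed the filter on low values that left 15801 genes for testing. Expression was measured by bulk RNA-seq of the microdissected arcuate nucleus (ARC), a cell group at the base of the hypothalamus that controls feeding, reproduction and pituitary output. All animals were females of 27 weeks carrying floxed Esr1, the gene for oestrogen receptor alpha. Controls (Esr1fl/fl) had no Cre named in their label, whereas in mutants (Esr1Nkx2-1Cre) Cre was expressed from Nkx2-1, a transcription factor gene active in the developing ventral forebrain, so that the receptor gene is recombined in every cell with that history and not in one arcuate cell type alone. Animals were fed chow or, from 10 weeks of age, a high-fat diet (HFD) for 17 weeks. On chow there were 3 control and 4 mutant libraries, and on HFD 2 control libraries and 3 that are labelled mutant. The design asks what loss of the receptor does on chow, which accompanies high bone mass in these females, and what the diet does in each genotype.

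The deposited values are an abundance signal that the authors normalized for gene length and sequencing depth, so that levels can be compared between genes. Sequencing depth itself is unknown, and no counting error can be given. Column sums ranged from 922172 to 1254999, and between 201 and 1768 genes were at 0 in a library. Esr1 was examined first, as a check of the genotype labels. Control chow gave Esr1 signals of 17.8, 7.29 and 19.8, against 6.05, 3.15, 1.93 and 1.65 in mutant chow (each group here and below in the order of its replicates). Control HFD gave 15.3 and 22.4, and the 3 libraries labelled mutant HFD gave 10.7, 16.6 and 11.9. The chow groups did not overlap, but the 3 libraries labelled mutant HFD lay within the range of the controls, so their genotype is given here as labelled only. The labels do not say whether a library came from 1 animal or from pooled animals. All 10 neuron markers and all 10 arcuate neuron markers listed were in the table, with summed signals of 1935 to 3236 and 2195 to 8325 per library. The tissue also held RNA of its surroundings: 6 of 8 pituitary markers were in the table and summed to 121 to 6030 per library. Oxt and Avp, which mark neurons of neighbouring nuclei, ranged from 59.3 to 1736 and from 77.3 to 3051. They come from a list of 4 markers. Of the others, Otp ranged from 87.8 to 185, whereas Sim1 was near 0 throughout, at 0 to 1.18. In bulk tissue, fewer cells of a type and less RNA per cell cannot be told apart.

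Peptide hormones are made as long precursors that enter the regulated secretory pathway. In the trans-Golgi network and in immature dense core vesicles, the convertases PC1/3 (from Pcsk1) and PC2 (from Pcsk2) cut the precursor after pairs of basic residues, and carboxypeptidase E (from Cpe) removes the basic residues left at the new ends. The granins are acidic proteins that aggregate with calcium, help vesicles to form and are themselves cut to peptides. In the ARC the pathway converts proopiomelanocortin to alpha-MSH, and the agouti-related protein, NPY and CART precursors to the forms that are released, so it stands between the transcription of a peptide gene and the peptide that leaves the neuron.

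Several granin and convertase genes are known to respond to cyclic AMP through the cyclic AMP response element, and their promoters were therefore read for it. RefSeq promoter windows (GRCm38.p6, 250 bases before to 50 after the start) were matched for 8 of the 10 genes, all but Cpe and Vgf. The full palindromic element, TGACGTCA, which reads the same on both strands, was present in 3 of the 8 windows and in 1.79% of the 32851 promoters searched. The 3 sites are shown because they are the exact matches in the 8 windows, and Cpe and Vgf were not searched. Each line gives 30 bases, 5′ to 3′ on the strand of the gene, with the element in capitals. The element begins 68, 72 and 78 bases before the RefSeq start of Scg2, Chgb and Pcsk1. The gene spans given further below are from GENCODE and can begin elsewhere. Those of Scg2 and Chgb begin farther upstream and include the bases shown, whereas the bases shown for Pcsk1 lie before its span.
Scg2, chr1:79440076-79440105, minus strand: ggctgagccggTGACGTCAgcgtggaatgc
Chgb, chr2:132781559-132781588, plus strand: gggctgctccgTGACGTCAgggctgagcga
Pcsk1, chr13:75089768-75089797, plus strand: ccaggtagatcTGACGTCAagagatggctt
The shorter motif TGACG on either strand, which every full element contains, was present in 7 of the 8 windows and in 20.8% of all promoters searched. Only the window of Pcsk1n lacked it. These are matches of letters and not sites of measured binding.

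The 10 genes spanned a wide range of levels in the ARC. Averaged over the 12 libraries, Pcsk1n was the highest with a signal of 1761 ± 486 (SD, n = 12), followed by Chga with 1719 ± 1093 and Cpe with 1307 ± 214. Scg5 (826 ± 125), Scg2 (713 ± 82.8) and Vgf (592 ± 169) formed a middle tier, and Chgb (391 ± 124) and Scg3 (267 ± 30.3) lay below them. The convertases were by far the lowest, with 58.3 ± 12.4 for Pcsk2 and 35.9 ± 8.71 for Pcsk1. Neighbours in this order whose SDs overlap were Pcsk1n and Chga, Chga and Cpe, Scg5 and Scg2, Scg2 and Vgf, Vgf and Chgb, and Chgb and Scg3. Together the 10 genes made up 0.634 to 0.940% of the summed signal of a library. Both convertase partners outnumbered their enzymes in signal: the ratio of Pcsk1n, the source of the PC1/3 inhibitor proSAAS, to Pcsk1 was 24.3 to 91.6, and the ratio of Scg5, the source of the PC2 chaperone 7B2, to Pcsk2 was 8.30 to 24.5.

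The genes also differed in how evenly they were expressed. Scg3 and Scg2 were the steadiest, with a highest library 1.45 and 1.44 times the lowest and an SD of log2 signal above those of only 9.26% and 9.75% of the 7353 genes with a mean signal of at least 20. Chga was the most variable, with a highest library 9.33 times the lowest and an SD above those of 97.6% of these genes. Vgf (2.31 times, 74.8%) and Chgb (2.82 times, 78.6%) lay between. Control HFD replicate 1 was the lowest library for Pcsk1n, Chga, Chgb and Scg2 and the highest for Cpe, Scg3 and Pcsk2. Control chow replicate 2 was the highest for Pcsk1n, Scg5 and Chga and the lowest for Pcsk2. Among the 3 genes in whose window the full cyclic AMP response element was found, Scg2 was among the steadiest and Chgb among the most variable.

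**Figure D1:**
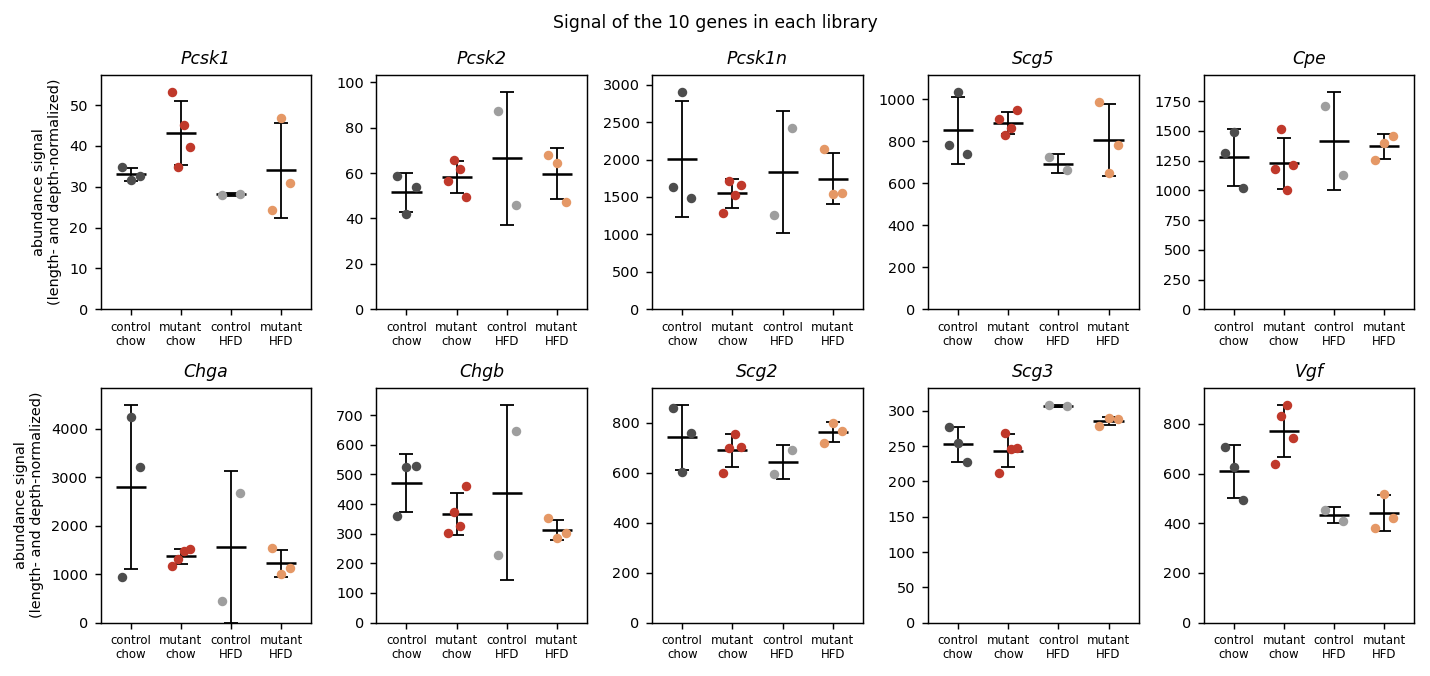
Abundance signal (y axes from 0, each gene on its own scale) of the 10 genes in each of the 12 libraries (points), grouped by genotype and diet, with the group mean (horizontal line) and SD (bars; n = 3, 4, 2 and 3). Vgf lies at 379 to 519 in all 5 HFD libraries against 495 to 874 on chow, whereas Chga spreads from 948 to 4241 within the control chow group alone.

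None of the 10 genes differed between groups at an adjusted p under 0.05 in any of the 5 comparisons (limma on log2(signal + 1), Benjamini-Hochberg over 15801 genes). For genotype on chow, 0 of 10 genes were called, against 0.019% of all genes tested, and 0 of 10 had an unadjusted p under 0.05, against 4.34%. For diet in mutants, 0 of 10 were called, against 0.019%, and 1 of 10, Vgf, had an unadjusted p under 0.05, against 5.37%. For genotype on HFD, 0 of 10 were called, against 0.00633%, and 0 of 10 had an unadjusted p under 0.05, against 2.21%. For diet in controls, 0 of 10 were called, against 0%, and 1 of 10, again Vgf, had an unadjusted p under 0.05, against 3.54%. For the genotype by diet interaction, 0 of 10 were called, against 0%, and 0 of 10 had an unadjusted p under 0.05, against 3.44%. The comparisons share groups, so the result for Vgf in one is not independent of that in another.

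The median log2 fold change of the 10 genes was -0.05 for genotype on chow, where the median of all genes tested was 0.01. It was -0.07 against -0.02 for diet in mutants, 0.00 against -0.01 for genotype on HFD, and -0.21 against -0.01 for diet in controls. Signs were mixed: 4 genes were positive and 6 negative for genotype on chow, and 5 and 5 for diet in mutants. The 10 genes did not move as a block in either comparison. Standard errors ran from 0.13 for Scg3 to 0.56 for Chga in both the genotype comparison on chow and the diet comparison in mutants, so a change of a given size was harder to detect for Chga than for Scg3.

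**Figure D2:**
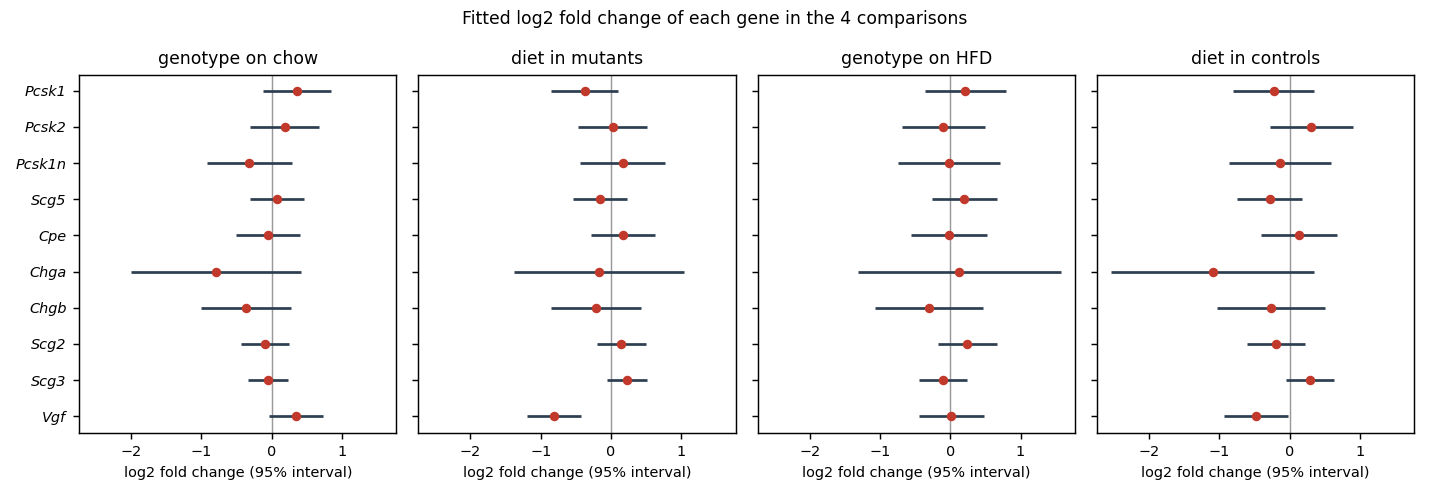
Fitted log2 fold change (x axis, on the log2(signal + 1) scale) of each of the 10 genes in the 4 comparisons between groups, with points for the estimate and bars for the 95% interval of the limma fit. The interval of Vgf excludes 0 in both diet comparisons before adjustment, and that of Chga is the widest in every panel.

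Vgf encodes a granin-like precursor made in neurons and endocrine cells, whose peptides act on energy balance. Of the 10 genes it had the lowest unadjusted p in both diet comparisons (ENSMUSG00000037428, GRCm38 chr5:137026392-137033351, plus strand). Control chow gave signals of 705, 628 and 495, against 640, 830, 874 and 743 in mutant chow. Control HFD gave 455 and 411, against 379, 519 and 423 in the libraries labelled mutant HFD. Every mutant chow library was above every library labelled mutant HFD, every control chow library was above both control HFD libraries, and the chow groups overlapped.

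In mutants, Vgf averaged 440 ± 71.7 (SD, n = 3) on HFD and 772 ± 103 (n = 4) on chow, a ratio of means of 0.571. The fitted log2 difference was -0.81 ± 0.18 (SE; 95% interval -1.20 to -0.43), with an unadjusted p of 0.000589, rank 21 of the 15801 genes, and an adjusted p of 0.444 in limma. Groups that did not overlap in this direction were found for 4.88% of all genes tested. In controls, Vgf averaged 433 ± 31.2 (n = 2) on HFD and 609 ± 106 (n = 3) on chow, and the log2 difference was -0.48 ± 0.21 (95% interval -0.94 to -0.02; unadjusted p = 0.0422, adjusted p = 0.998, limma). As each library was left out in turn, the value in controls ran from -0.62 to -0.37, and its unadjusted p was above 0.05 on leaving out control chow replicate 1 or 2 or either control HFD library, among others (with 1 control HFD library left, that library is assumed to vary like the other groups). The differences of Vgf between diets in the genotypes as labelled were not shown to differ: the interaction was -0.33 ± 0.28 (95% interval -0.93 to 0.27; adjusted p = 0.999, limma). Between the same mutant groups, Esr1 itself was higher on HFD by 1.84 ± 0.41, without overlap (adjusted p = 0.455, limma). Diet, Esr1 level and genotype therefore cannot be told apart in the mutant comparison. The log2 difference of Vgf between genotypes was 0.35 ± 0.18 on chow (95% interval -0.04 to 0.73; unadjusted p = 0.0740, adjusted p = 0.982, limma), with overlap of the groups. On HFD it was 0.01 ± 0.21 (adjusted p = 1, limma), where this second value used the libraries labelled mutant HFD.

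Markers of several cell types also had log2 differences of mostly 1 sign between the mutant groups. For diet in mutants, the log2 differences of the oligodendrocyte markers were negative for 7 of 7 (median -0.65) and those of the microglia markers for 6 of 6 (median -0.44). Those of the arcuate neuron markers were negative for 9 of 10 (median -0.38) and those of the endothelial markers for 6 of 6 (median -0.18). The median of all genes tested was -0.02. The neuron markers were positive for 9 of 10 (median 0.18) and the astrocyte markers for 4 of 7 (median 0.07). In these lists 0 markers were called (limma). An unadjusted p under 0.05 was found for 3 microglia, 2 arcuate neuron and 1 endothelial marker, where 5.37% of all genes tested passed (limma). It was found for 0 oligodendrocyte, neuron or astrocyte markers. The tanycyte and ependymal markers were negative for 5 of 6 (median -0.34) for diet in mutants. Of these 0 were called, and Dio2 alone had an unadjusted p under 0.05 (limma). For genotype on chow, the oligodendrocyte and microglia markers were positive for 7 of 7 (median 0.65) and 6 of 6 (median 0.46). The arcuate neuron markers summed to 4308 to 8325 in mutant chow and to 3834 to 4455 in the libraries labelled mutant HFD, with overlap, and the oligodendrocyte markers to 1799 to 5696 and 1868 to 2785. Microglia are the resident macrophages of the brain, and theirs was the list tried as a covariate. All 6 of 6 listed microglia markers were in the table and none was at 0 in every library of a group. Their summed signal was 328 to 352 in mutant chow, 198 to 225 in the libraries labelled mutant HFD, 177 to 311 in control chow and 196 to 230 in control HFD. Control chow replicate 1 had the lowest microglia sum (177) and a Vgf signal of 705. Over the 12 libraries, log2 Vgf and the mean log2 level of these markers had a Pearson r of 0.682. The permutation p was 0.0161, or 0.1345 adjusted over 50 gene and marker pairs. With group means removed the r was 0.203. With the mean log2 level of these markers as a covariate, an alternative chosen after the data were seen, the log2 difference of Vgf between diets in mutants was -0.68 (unadjusted p = 0.0494, adjusted p = 0.996, limma). In the control comparison it was -0.49. The summed microglia signals of the mutant groups did not overlap, so in mutants this covariate cannot separate the marker level from the group. With the neuron markers as covariate, the difference in mutants was -0.83. The part of the oligodendrocyte, endothelial, arcuate neuron, and tanycyte and ependymal markers in the difference of Vgf was not tested.

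The convertases make the first cut of the precursors. Pcsk1 (ENSMUSG00000021587, chr13:75089826-75134861, plus strand) had a signal of 34.8, 31.7 and 32.7 in control chow, and of 53.2, 34.9, 45.1 and 39.9 in mutant chow. HFD gave Pcsk1 signals of 27.9 and 28.3 in controls, and 24.3, 46.9 and 30.8 in the libraries labelled mutant HFD. All 4 mutant chow libraries were above all 3 control chow libraries, the closest pair being 34.9 and 34.8, and groups that did not overlap in this direction were found for 2.54% of all genes. The means were 43.3 ± 7.83 and 33.1 ± 1.58 (SD, n = 4 and 3), and the log2 difference of 0.36 ± 0.22 (95% interval -0.12 to 0.84) had an adjusted p of 0.982 (limma). Between diets in mutants it was -0.37 ± 0.22 (adjusted p = 0.924, limma), with overlap of the groups. The library labelled mutant HFD replicate 2, with a signal of 46.9, weighed on this value, which was -0.63 without it and -0.17 without the library labelled mutant HFD replicate 1. As each library was left out in turn, the unadjusted p of this value ran from 0.0133 to 0.484 (limma). Over all alternatives its adjusted p was at least 0.819 (limma). Both control HFD libraries were below all control chow libraries, with a log2 difference of -0.23 ± 0.26 (adjusted p = 0.998, limma). Groups that did not overlap in this direction were found for 7.76% of all genes in that comparison.

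Pcsk2 (ENSMUSG00000027419, chr2:143546156-143816285, plus strand) had a signal of 58.5, 42.2 and 53.7 in control chow, and of 56.6, 65.9, 61.6 and 49.3 in mutant chow. With HFD the Pcsk2 signal was 87.2 and 45.9 in controls, and 67.9, 64.4 and 47.1 in the libraries labelled mutant HFD. The groups overlapped in all comparisons, and the control HFD libraries were the farthest apart. The log2 difference was 0.18 ± 0.23 between genotypes on chow and 0.02 ± 0.23 between diets in mutants (adjusted p = 0.988 and 0.995, limma). The opposite-strand genes Pcsk2os1 and Pcsk2os2 share exon bases with it, and use of strand in the quantification is not given in the sources used here. The ratio of Pcsk1 to Pcsk2 was 0.753 ± 0.172 in mutant chow and 0.652 ± 0.0867 in control chow (exact two-sided permutation test, p = 0.514, adjusted over 4 ratio tests 0.686). The libraries labelled mutant HFD had a ratio of 0.580 ± 0.196, which was compared with mutant chow (exact two-sided permutation test, p = 0.286, adjusted 0.571).

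The convertase partners were expressed far above their enzymes. Pcsk1n (ENSMUSG00000039278, chrX:7919822-7924410, plus strand, with exon overlap with the opposite-strand gene Eras) had a signal of 1639, 2904 and 1488 in control chow, and of 1292, 1716, 1524 and 1662 in mutant chow. Pcsk1n on HFD was at 1258 and 2415 in controls, and 2136, 1544 and 1559 in the libraries labelled mutant HFD. Control chow replicate 2 and control HFD replicate 2 stood above the other libraries of their groups, and in both of them Chga was also the highest of its group. The log2 difference was -0.32 ± 0.28 between genotypes on chow and 0.17 ± 0.28 between diets in mutants (adjusted p = 0.982 and 0.966, limma). Single libraries moved both values: the chow value was -0.02 without control chow replicate 2 and -0.50 without control chow replicate 3, and the diet value was 0.08 without mutant chow replicate 1 and 0.01 without the library labelled mutant HFD replicate 1. Scg5 (ENSMUSG00000023236, chr2:113776362-113829121, minus strand) had a signal of 782, 1035 and 740 in control chow, and of 908, 832, 862 and 947 in mutant chow. Scg5 on HFD was at 724 and 662 in controls, and 987, 651 and 780 in the libraries labelled mutant HFD. Both control HFD libraries were below all control chow libraries, as for Pcsk1, Vgf and 7.76% of all genes in that comparison, and the other groups overlapped. The log2 difference of Scg5 was 0.07 ± 0.18 between genotypes on chow and -0.16 ± 0.18 between diets in mutants (adjusted p = 0.992 and 0.953, limma). The diet value was -0.31 without the library labelled mutant HFD replicate 1 and -0.01 without the library labelled mutant HFD replicate 2.

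Cpe trims the basic residues that the convertases leave and was one of the most abundant of the 10 genes (ENSMUSG00000037852, chr8:64592542-64693054, minus strand). Its signal was 1317, 1491 and 1020 in control chow, and 1179, 1516, 1001 and 1215 in mutant chow. After HFD, Cpe was at 1707 and 1126 in controls, and 1252, 1398 and 1460 in the libraries labelled mutant HFD. All groups overlapped. The log2 difference was -0.05 ± 0.21 for genotype on chow (95% interval -0.51 to 0.40) and 0.17 ± 0.21 for diet in mutants (95% interval -0.28 to 0.62), with adjusted p of 0.995 and 0.953 (limma). Leaving out 1 library moved the diet value to between 0.08 (without mutant chow replicate 3) and 0.28 (without mutant chow replicate 2).

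Chga encodes chromogranin A, the main soluble protein of dense core vesicles in many endocrine cells (ENSMUSG00000021194, chr12:102554969-102565028, plus strand). Its signal was 948, 4241 and 3205 in control chow, and 1162, 1301, 1477 and 1510 in mutant chow. After HFD, Chga was at 454 and 2663 in controls, and 1535, 997 and 1133 in the libraries labelled mutant HFD. The 7 libraries labelled mutant stayed between 997 and 1535, whereas the 5 control libraries held both the highest and the lowest values. The log2 difference was -0.79 ± 0.56 between genotypes on chow and -0.17 ± 0.56 between diets in mutants (adjusted p = 0.982 and 0.980, limma). The chow value was -0.36 without control chow replicate 2 and -1.44 without control chow replicate 1. As each library was left out in turn, the unadjusted p of the chow value ran from 0.0167 to 0.554 (limma). Over all alternatives its adjusted p was at least 0.732 (limma). Between diets in controls the log2 difference was -1.09 ± 0.67 (adjusted p = 0.998, limma). This difference was 0.18 without control HFD replicate 1, -2.37 without control HFD replicate 2 and -1.74 without control chow replicate 1, so single libraries set this value. Chga made up 53.1 ± 20.2% of the summed signal of the 5 granins in control chow and 39.7 ± 1.56% in mutant chow (exact two-sided permutation test, p = 0.286, adjusted over 4 ratio tests 0.571).

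Chgb, which encodes chromogranin B, followed the pattern of Chga at a lower level (ENSMUSG00000027350, chr2:132781278-132795079, plus strand). Its signal was 359, 526 and 529 in control chow, and 302, 374, 326 and 462 in mutant chow. Chgb after HFD was at 229 and 647 in controls, and 352, 285 and 301 in the libraries labelled mutant HFD. The lowest and the highest library were both control HFD. The log2 difference was -0.36 ± 0.30 between genotypes on chow and -0.21 ± 0.30 between diets in mutants (adjusted p = 0.982 and 0.958, limma). Over the 12 libraries the log2 signals of the chromogranins had a Pearson r of 0.883 (permutation p = 0.00022, adjusted over 45 gene pairs 0.0099) and a Spearman rho of 0.811 (permutation p = 0.00213, adjusted 0.0959). The r was 0.853 without the libraries at the extremes of Chga, 0.900 with group means removed and 0.832 within the 7 chow libraries. The 12 points share library and tissue make-up between the genes.

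Cga, the common subunit of the pituitary glycoprotein hormones, varied alongside Chga. It was 407, 4802 and 1199 in control chow, 875, 813, 1586 and 1326 in mutant chow, 82.0 and 1018 in control HFD, and 667, 1428 and 957 in the libraries labelled mutant HFD. The library with the highest Chga and the library with the lowest were also the highest and the lowest for Cga. Pearson's r of log2 Chga with log2 Cga was 0.803 (permutation p = 0.00323, adjusted over 50 gene and marker pairs 0.0404) and Spearman's rho was 0.552 (permutation p = 0.0669, adjusted 0.558). Without the libraries at the extremes of Cga the r was 0.322, so the size of this r rests on them. With group means removed the r was 0.879, and within the chow libraries it was 0.827, both with those extremes kept where they fall. The relation of Chga to the other pituitary markers was not tested. The summed pituitary markers ran from 556 to 6030 in control chow, 1110 to 2097 in mutant chow, 121 to 1468 in control HFD and 910 to 1904 in the libraries labelled mutant HFD. Of the 8 listed, Gh and Pou1f1 were not in the table. Prl was at 0 in both control HFD libraries, and also in some libraries of each other group. With log2 Cga as a covariate, chosen after the data were seen, the log2 difference of Chga between diets in controls was 0.18 in place of -1.09, and that between genotypes on chow was -0.64 in place of -0.79.

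Chga and Pcsk2 also lay on opposite sides with respect to the neuron markers. The mean log2 level of the 10 markers had a Pearson r of -0.903 with Chga (permutation p = 8e-05, adjusted 0.004) and a Spearman rho of -0.769 (permutation p = 0.00467, adjusted 0.103). With Pcsk2 the r was 0.845 (permutation p = 0.00079, adjusted 0.0152) and the rho 0.853 (permutation p = 0.00077, adjusted 0.0385). Without the libraries at the extremes of the marker level the r was -0.763 for Chga and 0.603 for Pcsk2. Chgb resembled Chga, with an r of -0.826 (adjusted permutation p = 0.0152). The neuron markers summed to 1935 to 2473 in control chow, 2005 to 2519 in mutant chow, 1960 to 3236 in control HFD and 2459 to 2775 in the libraries labelled mutant HFD. Their part in the levels of Chga, Chgb and Pcsk2 was tested no further than by the covariate, under which the log2 difference of Chga on chow was -0.30.

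**Figure D3:**
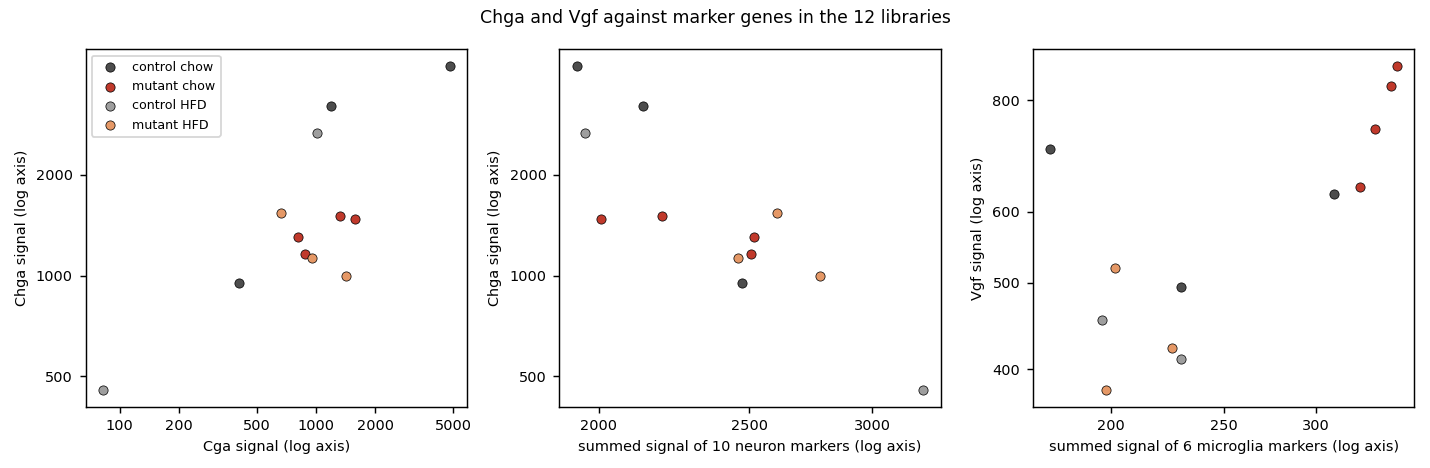
Signal of Chga against Cga (left), Chga against the summed signal of 10 neuron markers (middle) and Vgf against the summed signal of 6 microglia markers (right) in the 12 libraries, coloured by group, all axes logarithmic. Chga is highest in the library with the highest Cga (4802) and lowest in the library with the lowest (82.0). The 4 mutant chow libraries have the highest microglia sums, at 328 to 352, with control chow replicate 2 close to them at 311.

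Scg2, the source of secretoneurin, was even across the libraries (ENSMUSG00000050711, chr1:79434669-79440120, minus strand). Its signal was 859, 604 and 760 in control chow, and 598, 697, 757 and 704 in mutant chow. For HFD the Scg2 signals were 597 and 693 in controls, and 720, 798 and 769 in the libraries labelled mutant HFD. The libraries labelled mutant HFD were above both control HFD libraries, with a log2 difference of 0.24 ± 0.19 (adjusted p = 1, limma), and such separation was found for 7.27% of all genes in that comparison. The log2 difference was -0.10 ± 0.16 for genotype on chow (95% interval -0.44 to 0.25) and 0.15 ± 0.16 for diet in mutants (95% interval -0.20 to 0.50), with adjusted p of 0.991 and 0.952 (limma).

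Scg3, which binds chromogranin A to the vesicle membrane, varied little (ENSMUSG00000032181, chr9:75643189-75684056, minus strand). Its signal was 277, 254 and 227 in control chow, and 212, 269, 246 and 248 in mutant chow. For HFD the Scg3 signals were 308 and 307 in controls, and 279, 290 and 288 in the libraries labelled mutant HFD. Within each genotype as labelled, the HFD libraries were above the chow libraries, the closest values being 277 and 307 in controls and 269 and 279 in mutants. The log2 difference between diets was 0.23 ± 0.13 in mutants (95% interval -0.05 to 0.52; unadjusted p = 0.0999, adjusted p = 0.920, limma) and 0.29 ± 0.16 in controls (95% interval -0.06 to 0.63; unadjusted p = 0.0935, adjusted p = 0.998, limma). Groups that did not overlap in this direction were found for 3.11% of all genes in mutants and for 6.32% in controls. Between genotypes on chow the log2 difference was -0.05 ± 0.13 (95% interval -0.34 to 0.23; adjusted p = 0.992, limma). On HFD, Scg3 was lower in the libraries labelled mutant HFD than in both controls, by a log2 difference of -0.11 ± 0.16 (adjusted p = 1, limma), as were 8.46% of all genes without overlap.

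Across the 45 pairs of the 10 genes, the median Pearson r of log2 signal over the 12 libraries was -0.04, and 19 of 45 were positive. Chga and Chgb were the single pair with an adjusted permutation p under 0.05. The deviations of each gene from its own mean show the same by library: in control HFD replicate 1 the mean deviation of the 10 genes was -0.27 on the log2 scale and 3 of 10 genes were above their own mean, and in control chow replicate 2 the mean deviation was 0.26 with 6 of 10 above. In the other 10 libraries the mean deviation lay between -0.14 and 0.08.

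**Figure D4:**
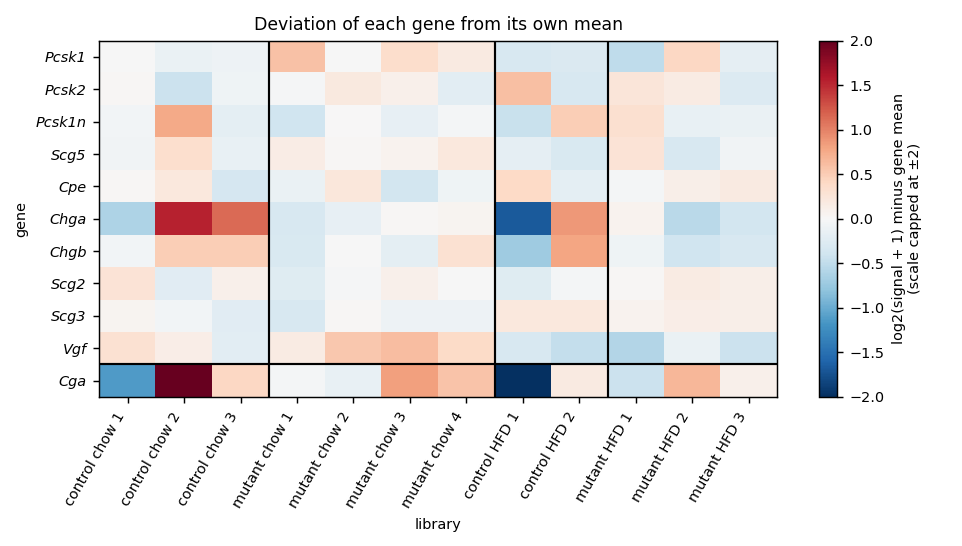
Deviation of log2(signal + 1) from the mean of each gene over the 12 libraries (colour, red above and blue below, capped at 2 in each direction), for the 10 genes and, below the line, Cga; columns are libraries in groups. Chga and Cga share the deep colours of control chow replicate 2 and control HFD replicate 1. Chgb is paler in both and is highest in control HFD replicate 2. Vgf is blue in all 5 HFD libraries and also in control chow replicate 3.

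The genes whose log2 signal was most like the mean of the 10 over the 12 libraries were Bcam (Pearson r = 0.949), Cntfr (0.930), Spint2 (0.928), Tcim (0.916) and Mia (0.914), out of 15791 genes searched. Because Chga varies most, it weighs most on that mean. The genes most like Chga alone, and the genes most like Vgf alone, were searched after the values had been seen. For Chga they were Apoc3 (0.954), Cck (0.949), Wfdc2 (0.921), Spint2 (0.919) and Anxa5 (0.915). For Vgf they were Tlr3 (0.892), Procr (0.892), Cd84 (0.880), Csf1r (0.880) and Tut7 (0.871), of which Csf1r, the receptor for colony-stimulating factor 1, is also one of the listed microglia markers. These are descriptions over 12 libraries that share group differences and tissue make-up.

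The other enzymes of peptide maturation were read from a list of 15 genes, among them Pam, which amidates peptide ends, and Furin, the convertase of the constitutive pathway. Of these, 14 were in the table, 0 were called in any comparison and 0 had an unadjusted p under 0.05 in any of the 5 comparisons (limma). Their median log2 difference was 0.03 between genotypes on chow and -0.09 between diets in mutants, where the medians of all genes were 0.01 and -0.02. Pam, at 226 to 338 across the libraries of the chow groups, differed by 0.09 ± 0.17 between genotypes on chow (adjusted p = 0.991, limma).

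Of 34 genes of the dense core vesicle and its release, all 34 were tested and 0 were called in any comparison (limma). For genotype on chow, 2 of 34 had an unadjusted p under 0.05, both with lower values in mutants, where 4.34% of all genes tested passed. Rab3b, a small GTPase of secretory vesicles, had a signal of 154, 161 and 179 in control chow and of 99.2, 111, 101 and 120 in mutant chow, without overlap, as for 1.97% of all genes in that direction, and a log2 difference of -0.61 ± 0.18 (adjusted p = 0.956, limma). Hid1, a Golgi protein needed for dense core vesicle formation, differed by -0.39 ± 0.17 (adjusted p = 0.982, limma), with overlap of the groups. For diet in mutants, 28 of 34 log2 differences were positive with a median of 0.13, where the median of all genes was -0.02. An unadjusted p under 0.05 was found for 2 of 34, where 5.37% of all genes tested passed. These were Rab3c, with 0.44 ± 0.18 (adjusted p = 0.891, limma), and Rab3d, with 0.76 ± 0.34 (adjusted p = 0.916, limma), the latter at a signal of only 2.38 to 11.3. Of the 10 neuron markers, 9 were also positive in that comparison, with a median of 0.18, whereas 9 of the 10 arcuate neuron markers were negative, with a median of -0.38. For diet in controls, Rab3b again was the single gene of the 34 with an unadjusted p under 0.05, with a lower value on HFD, where 3.54% of all genes tested passed.

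Of 12 peptidases that degrade released peptides, all 12 were tested and 0 were called in any comparison (limma). Their median log2 difference was 0.30 between genotypes on chow and -0.28 between diets in mutants. Prcp, the carboxypeptidase that inactivates alpha-MSH, was the single one of the 12 with an unadjusted p under 0.05, for diet in mutants, where 5.37% of all genes tested passed. Its log2 difference was -0.72 ± 0.33 (adjusted p = 0.916, limma) at a signal of 6.22 to 21.2.

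The precursors on which the pathway acts were read from a list of 31 genes, of which 30 were in the table and 0 were called in any comparison (limma). For genotype on chow, 3 of 30 had an unadjusted p under 0.05 with higher values in mutants and 1 with a lower value, where 4.34% of all genes passed in either direction. For diet in mutants, 2 had higher and 3 lower values in the libraries labelled mutant HFD, where 5.37% of all genes passed. For genotype on HFD, 4 had higher values in the libraries labelled mutant HFD and 0 lower, where 2.21% of all genes passed, and for diet in controls 1 had a lower value, where 3.54% passed. Named after their values were seen, these were Nts, Pdyn and Penk (higher) and Prok2 (lower) on chow, and Gnrh1 and Prok2 (higher) and Npy, Nts and Penk (lower) between diets in mutants, Avp, Gnrh1, Nts and Tac1 between genotypes on HFD, and Gnrh1 between diets in controls. Among the abundant precursors, Pomc differed by 0.25 ± 0.44 between genotypes on chow and by -0.43 ± 0.44 between diets in mutants. Agrp differed by -0.26 ± 0.60 and -0.57 ± 0.60, and Cartpt by 0.04 ± 0.33 and -0.30 ± 0.33. Npy differed by 0.14 ± 0.59 on chow and by -1.30 ± 0.59 between diets in mutants, the latter with an unadjusted p of 0.0478 and an adjusted p of 0.916 (limma). Oxt and Avp differed by 1.01 ± 0.90 and 1.50 ± 0.93 between genotypes on chow and by 0.81 ± 0.90 and 1.59 ± 0.93 between diets in mutants, with a wide spread within groups.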

How the data were processed

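RNA was extracted from microdissected ARC tissue of female mice and sequenced in bulk, with 1 library per sample. The authors quantified genes with kallisto against mm10 transcripts and tested genes with sleuth (versions not given in the sources used here). The deposited table holds an abundance signal, normalized by the authors for length and depth, for 16640 genes in 12 libraries. How it was scaled across libraries is not given in the sources used here, and whole reads per gene cannot be worked back from the values of this table. Raw reads were not used here. Columns were matched to samples by label, and 0 were left unmapped. No pair of libraries held identical values. The labels do not state that libraries came from separate animals, so p-values measure the spread between these libraries, which may be partly technical.

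Values were taken as log2(signal + 1), and genes with a signal of at least 1 in at least 2 libraries were kept (15801). Fold changes of low genes are understated by the added 1. limma 3.58.1 in R 4.3.3, with a mean-variance trend, was fitted to all 12 libraries with 1 mean per group. Tests were two-sided, with Benjamini-Hochberg adjustment over all genes tested at 0.05. The fit was tested on simulated data. Correlations over libraries had been planned without p-values; permutation p-values (100000 permutations) were added. Symbols and coordinates are from GENCODE (GRCm38), which covered 16633 of the 16640 genes, and promoters are from RefSeq (GRCm38.p6). The members and all gene lists were chosen with earlier results of these data known. The genes named were all 10 members and Esr1. From the lists of other processing enzymes, dense core vesicle genes and peptidases, up to 2 per direction were named. These had the largest difference at an unadjusted p under 0.05 for genotype on chow and diet in mutants. Also named were 6 precursors picked by name and the 5 genes most like the mean of the members. Pam, Cga and the genes most like Chga and Vgf were added after their values were seen. Alternatives were other normalizations, filters, a pseudocount of 0.1, a fit without the trend, array weights, only the groups compared, a neuron marker covariate and leaving out each library. Covariates of Cga and of microglia markers were added after the data were seen.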

Additional observations from a re-analysis of the deposited data

How the results depend on the processing

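The number of the 10 genes called was 0 in each of 114 recounts over the 5 comparisons and all alternatives run; only the groups compared gave no value for the interaction, which needs all 4. Of 597 recomputed fold changes of single genes, 566 kept their direction and their side of the threshold, 31 changed sign and 0 passed it. For Vgf between diets in mutants the log2 difference ranged from -0.94 to -0.68 and the adjusted p from 0.150 to 0.999 over the alternatives. Rescaling every column to an equal sum moved the median of all genes to -0.18 for the interaction, from -0.03, and to 0.12 for diet in controls, from -0.01. The cause of the sign changes was not tested. For genotype on chow, quantile normalization gave Cpe 0.072, Scg2 0.018 and Scg3 0.0077, equal column sums gave Cpe 0.042, Scg2 0.00037 and Scg3 0.042, array weights gave Cpe 0.10, and the microglia covariate gave Scg5 -0.035, Scg2 0.035 and, with no change of sign, Chga -2.02. For diet in mutants, Pcsk2 was -0.0030 with equal sums, -0.11 with the neuron covariate, -0.010 with the Cga covariate and -0.33 with the microglia covariate, Chga was 0.23 with the neuron and 1.07 with the microglia covariate, and Chgb was 0.061 with the microglia covariate. For genotype on HFD, Vgf was -0.071 with quantile normalization and -0.062 with equal sums. For diet in controls, Chga was 0.18 with the Cga covariate. Leaving out each library in turn gave, on chow, Scg5 -0.022 to 0.22, Cpe -0.21 to 0.067, Scg2 -0.24 to 0.019 and Scg3 -0.13 to 0.015, for diet in mutants Pcsk2 -0.074 to 0.19, for genotype on HFD Vgf -0.11 to 0.12, and for diet in controls Chga -2.37 to 0.18. Single libraries also moved, by over 1.5 times with no change of sign, the chow values of Pcsk2 (0.28 and 0.049 without control chow replicates 1 and 2), Chgb (-0.55 without control chow replicate 1) and Vgf (0.20 without control chow replicate 3), the values for diet in mutants of Chga (-0.35 and -0.039 without the libraries labelled mutant HFD replicates 1 and 2), Chgb (-0.095 without mutant chow replicate 4) and Scg2 (0.083 without mutant chow replicate 1), and the interaction of Vgf (-0.19 without control chow replicate 3). The microglia covariate gave Pcsk1n -0.81 on chow. No paired analysis was possible because the labels give no replicate numbers that pair libraries across groups. Depth is unknown, so its limit on Pcsk1 and Pcsk2, the lowest of the 10 genes, cannot be stated.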
